A study of Mus musculus with 18 samples.

Results

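Of 10965 genes with an expression value in embryoid bodies (EBs) made from mouse embryonic stem cells (ESCs), 217 (1.98%) were strongly induced between d0 and d6 of neural differentiation (ND) in both control (Ctrl) and Zeb2 KO cells and ended at a similar level. They are called the shared-induction genes here. Among them were the keratin genes Krt8 and Krt18, the interferon-responsive GTPase genes Gbp2 and Gbp7, the glucose transporter gene Slc2a1, the p38 kinase genes Mapk11 and Mapk12, and Lin28a, which encodes an RNA-binding protein. The genes were chosen by their d0 and d6 values. A gene was taken when the mean of log2(TPM + 1) over the 3 libraries of a group was at least 2 higher at d6 than at d0 in each genotype, and when the KO mean at d6 was no more than 0.5 away from the Ctrl mean. TPM is a transcript level scaled to gene length and to the total of the library.

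The cells were CD1 ESCs with the genotype Zeb2 fl/fl (Ctrl) or Zeb2 -/- (Zeb2 KO), the latter obtained from floxed lines by introducing Cre recombinase, and the labels do not say which line each library came from. They were sampled as ground-state ESCs in 2i and LIF on d0, as multipotent progenitors on d4 after culture as EBs in a medium with 15% serum, and as neural progenitors on d6. Retinoic acid was added to 500 nM on d4, and the labels do not say whether the d4 samples were taken before it. Each genotype and day had 3 libraries of total RNA, 18 in all, that the series describes as biological replicates.

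The values that chose the genes were those of d0 and d6, so the induction, meaning the d6 minus d0 difference, and the d6 difference between genotypes are described below without a test. The d4 libraries took no part in the choice, and only the difference between Zeb2 KO and Ctrl at d4 was tested. It was fitted with limma on log2(TPM + 1) over all 10965 genes and 18 libraries, and a gene counted as called when its p, adjusted after Benjamini-Hochberg over all genes, was below 0.01. Differences are Zeb2 KO minus Ctrl on the log2(TPM + 1) scale, which understates the change of low genes, and levels are TPM.

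The libraries held between 9622622 and 15617675 reads in the genes of the table, recovered from the TPM values. Zeb2 itself averaged 7.66 TPM ± 0.138 (SD, n = 3) in Ctrl and 0.681 TPM ± 0.0763 (SD, n = 3) in KO at d6, and was lower in KO than in Ctrl on each day. The ESC marker Tfcp2l1 stood at 708 TPM in Ctrl and 703 TPM in KO at d0. At d6 the neural progenitor genes Pax6, Hes5 and Neurog1 averaged 34.6, 11.7 and 30.8 TPM in Ctrl, and 0.825, 0.734 and 0.793 TPM in KO, so these markers went against the label neural progenitor in the KO EBs. Sox1 and Nes, further markers of these cells, were lower in KO but present, with 10.9 and 50.1 TPM against 58.4 and 93.5 TPM in Ctrl. Fgf5, Otx2 and Pou3f1, genes of the postimplantation epiblast, averaged 99.0, 161 and 131 TPM in KO at d6 against 2.44, 9.14 and 14.9 TPM in Ctrl. The shared-induction genes thus reached their like d6 levels in cultures that differed in these marker genes. In such bulk samples, fewer cells of a type and less RNA per cell cannot be told apart.

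ESCs in 2i and LIF are held in a ground state by inhibitors of Mek and Gsk3 together with LIF, and their release starts a broad programme of gene activation. Zeb2 is a zinc finger protein that binds DNA at CACCTG-like sequences and is known mainly as a repressor of transcription with a role in neural development and epithelial to mesenchymal transition.

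The shared-induction genes were weakly expressed in ESCs. The median of their group means was 2.35 TPM in Ctrl and 1.53 TPM in KO at d0, and 51 of the 217 averaged below 1 TPM in both genotypes. It was 13.4 TPM in Ctrl and 12.2 TPM in KO at d4, and 22.5 TPM in Ctrl and 21.3 TPM in KO at d6. The median induction from d0 to d6 was 2.54 in Ctrl and 2.88 in KO, against 0.26 and 0.17 over all genes, and the middle 50% of the genes lay between 2.31 and 2.99 in Ctrl and between 2.46 and 3.47 in KO. The d0 levels rest on few reads: a shared-induction gene had a median of 31.5 reads in a d0 library, and 84 of the 217 had under 10 reads in at least 1 of them. At d6 the median was 348 reads and the lowest 12.

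**Figure D1:**
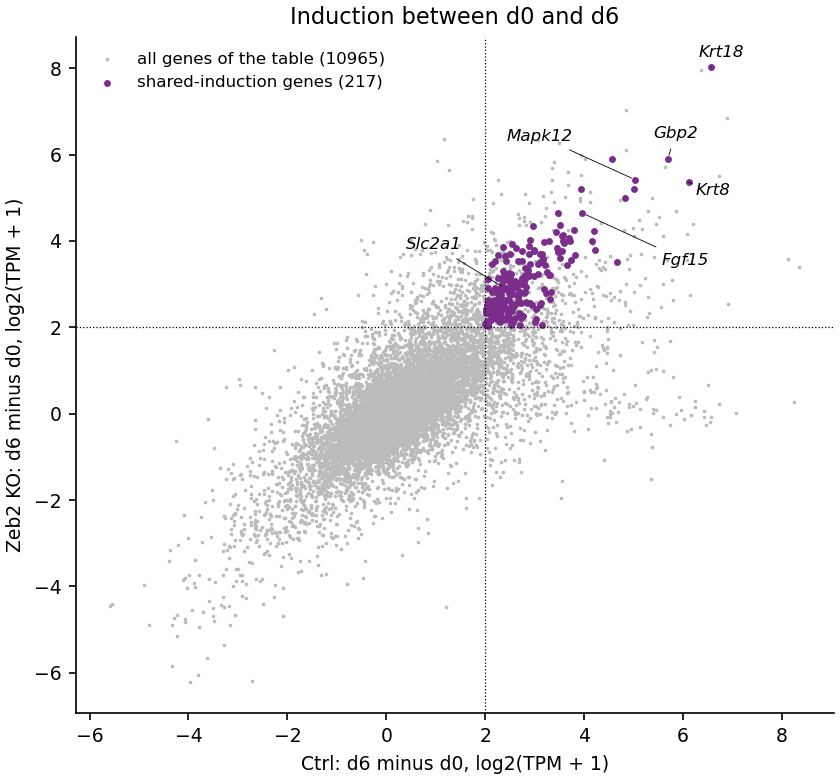
Each point is a gene, with its d6 minus d0 difference in Ctrl on the x axis and in Zeb2 KO on the y axis, both in log2(TPM + 1) and both means over 3 libraries. The 217 shared-induction genes (purple) lie above the dotted limits of 2 on both axes by construction, among 10965 genes (grey), with Krt18 and Krt8 farthest along the x axis among them.

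"Induced equally" did not describe all of these genes. The d6 level was close by the rule, with a median difference of -0.04 and a range from -0.50 to 0.49, but the induction was larger in KO than in Ctrl in 166 of the 217. Their d0 level was lower in KO in 178 genes, with a median d0 difference of -0.29 against -0.07 over all genes, and since the d6 levels were alike, a lower start makes a larger induction. Setbp1 had the highest d0 difference, 0.95. Nor were equal d6 levels shown for each gene, because 61 of the 217 had a 95% interval of the d6 difference (limma, given as a description) that lay within 0.5 on both sides, and the interval reached a median of 0.35 to each side.

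The limits cut through a continuum. Pdcd4 and Coch lay just inside the limit on the Ctrl induction with 2.004 and 2.012, and Cd74 and Cyp2d22 just outside with 1.996 and 1.983. Rilpl1 and Gm12454 lay just inside the limit on the KO induction with 2.02 and 2.05, and Lmo4 and Rnf122 just outside with 1.99 and 1.97. On the d6 difference, P4ha2 with -0.497 and Fam171b with 0.490 were kept, and Rnf128 with 0.501 and Sfrp2 with -0.506 were not. Of the genes induced by at least 2 in both genotypes, 245 (2.23% of all genes) were lower and 101 (0.921%) higher in KO at d6 than the limit allowed. The scale mattered as well: on log2(TPM + 5) the rule chose 70 genes, 67 of them among the 217, and after quantile normalization 81, of which 72 were among the 217.

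At d4, most shared-induction genes did not pass the threshold between the genotypes, and those that did lay mostly below Ctrl in KO. Of the 217, 62 were called lower in KO (28.6%, against 32.7% of all genes), 17 higher (7.83%, against 12.7%) and 138 neither. Calls in either direction came to 36.4% of the shared-induction genes and 45.5% of all genes. The median d4 difference was -0.25, and -0.16 over all genes, whose median moved to 0.00 under median-ratio rescaling, which sets each library by the typical ratio of its genes to their mean. Relative to that shift the calls were more even, with 41 genes lower (18.9%, against 21.3% of all genes) and 25 higher (against 21% of all genes), so that 62.1% of the called shared-induction genes were lower in place of 78.5%, and 50.4% of all called genes in place of 72.0%. Under quantile normalization 36 were lower and 36 higher, against 20.8% and 19.4% of all genes. With voom on the recovered reads 46 were lower and 35 higher, against 22.9% and 21.4% of all genes.

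The interval of the d4 difference lay within 0.5 on both sides for 43 of the 217. Differences beyond 1 that also passed the threshold were seen in 19 genes on the lower side (8.76%, against 7.58% of all genes) and in 3 on the higher side (1.38%, against 2.13%), which were Fgf15, Itm2a and Podxl. The genotypes did not overlap at d4 for 129 genes (59.4%, against 65.7% of all genes), with KO below in 99 (45.6%, against 45.7%) and above in 30 (13.8%, against 20%). Genes induced in both genotypes that ended lower in KO at d6 had a median d4 difference of -0.87 with 70.2% called lower, and genes induced in Ctrl alone one of -0.94 with 74.5% called lower. Those induced in both that ended higher in KO had a median of 0.315 with 34.7% called higher, and those induced in KO alone one of 0.26 with 31.4% called higher.

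**Figure D2:**
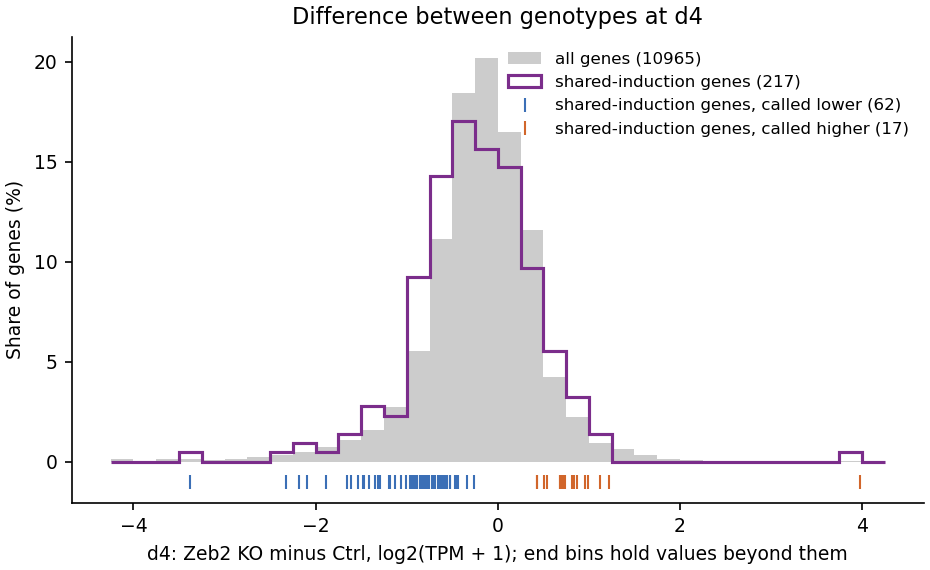
The x axis gives the d4 difference, Zeb2 KO minus Ctrl in log2(TPM + 1) and means of 3 libraries each, and the y axis the share of genes in bins, for all 10965 genes (grey) and for the 217 shared-induction genes (purple line). The ticks below mark the 62 genes called lower (blue) and the 17 called higher (orange), and the tick farthest to the right is Fgf15 at 3.97.

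Much of the induction was present at d4 in both genotypes. The share of the d0 to d6 difference in log2(TPM + 1) that was present at d4 had a median of 72.3% in Ctrl and 68.1% in KO. At least 50% of it was present in both genotypes for 154 genes, in Ctrl alone for 25, in KO alone for 15, and in neither for 23. At d4, 29 genes stood above their d6 level in Ctrl and 16 in KO. A group mean below its d0 level at d4 was seen for 4 genes, namely Csf1 and Vgll3 in Ctrl, Parp14 in KO and Cryab in both. These 4 were singled out after their values were seen. Cryab, a small heat shock protein gene, held 8.47, 7.92 and 9.89 TPM in Ctrl at d0, 2.07, 3.38 and 2.89 TPM at d4 and 33.2, 35.1 and 73.7 TPM at d6, so all d4 libraries lay below all d0 libraries. In KO it held 7.04, 4.62 and 5.64 TPM, then 3.98, 2.87 and 4.13 TPM, then 23.1, 48.8 and 56.9 TPM, with the same order of days.

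**Figure D3:**
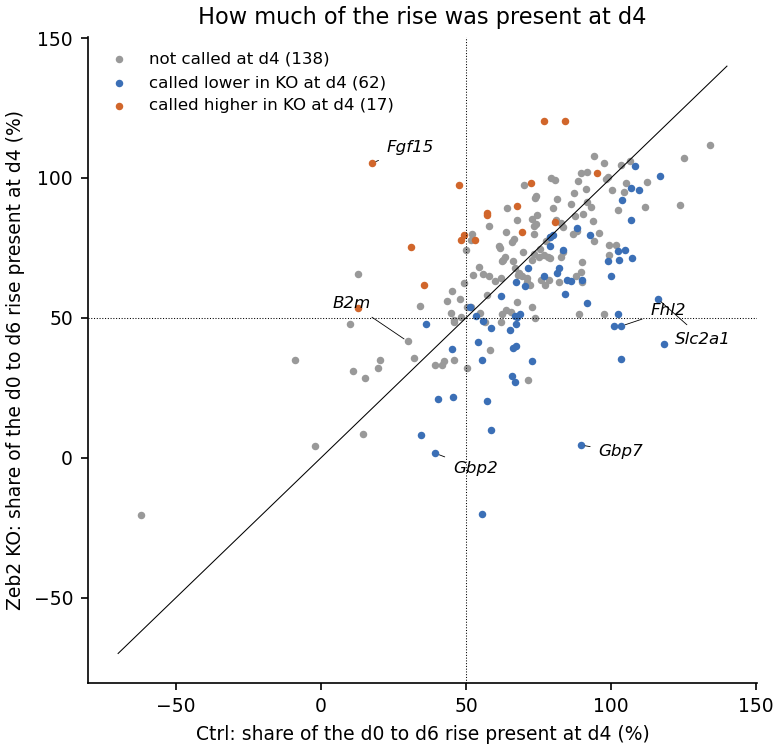
For each of the 217 genes, the share of the d0 to d6 difference in log2(TPM + 1) that was present at d4 is given for Ctrl (x axis, %) and Zeb2 KO (y axis, %), with the diagonal as equal timing and dotted lines at 50%. Gbp2 and Gbp7 lie far below the diagonal with 1.55% and 4.50% in KO, and Fgf15 far above it with 105% in KO against 17.6% in Ctrl.

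Cytoskeletal genes formed the list with the most shared-induction genes. Actin filaments and their cross-linkers carry tension in cells, and keratins 8 and 18 pair into the intermediate filaments of simple epithelia. Of 39 measured genes on the actin and intermediate filament list, 9 were shared-induction genes (23.1%, against 1.98% of all genes), namely Krt18, Krt8, Myl9, Zyx, Flnc, Tpm1, Tpm2, Cnn2 and Fhl2. The list was chosen with earlier results of these data known, so this share supports nothing by itself. Of the 39, 16 were induced by at least 2 in both genotypes. Among these, Acta1, Acta2, Actc1, Cnn1 and Tagln ended higher in KO at d6, by 0.917 (Actc1) to 1.89 (Tagln). Krt19 and Krt7 ended lower, with differences of -1.32 and -2.03. At d4 3 of the 9 shared-induction genes were called lower in KO, namely Zyx, Cnn2 and Fhl2, against 13 lower and 3 higher on the whole list. Among all genes 32.7% were called lower and 12.7% higher, so the lower calls were near the background. The median d4 difference of the 9 was -0.10.

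Krt18 (chr15:102028180-102032027, GRCm38, plus strand) had the largest induction of the 217 genes when the smaller of the Ctrl and KO values was taken, 6.57, followed by Gbp2 with 5.69 and Krt8 with 5.36. Its level in Ctrl was 6.65, 6.90 and 15.2 TPM at d0, 66.5, 84.5 and 81.9 TPM at d4 and 786, 884 and 1212 TPM at d6. In KO it was 4.25, 3.74 and 4.27 TPM at d0, 119.9, 154 and 142 TPM at d4 and 858, 1595 and 1665 TPM at d6. At d4 all KO libraries were above all Ctrl libraries, with a difference of 0.83 ± 0.27 (SE) that missed the threshold (limma adjusted p = 0.015) and passed it under median-ratio rescaling (1.00, adjusted p = 0.0049). At d6 KO replicate 1 was below the other two KO libraries and inside the Ctrl range. Choosing the genes without that library gave 209 genes, 193 of them among the 217, and fitting the d4 difference without it called 64 of the 217 lower and 21 higher in KO.

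Krt8 (chr15:101996698-102004482, minus strand) lies 23.7 kb from Krt18 in the opposite orientation. It went in Ctrl from 4.37, 1.89 and 4.04 TPM at d0 over 20.3, 25.6 and 26.7 TPM at d4 to 226, 303 and 374 TPM at d6. In KO it went from 6.6, 7.25 and 4.09 TPM over 20.9, 24.5 and 21.7 TPM to 162, 375 and 357 TPM, again with replicate 1 lowest at d6. The groups overlapped at d4 and d6, and the d4 difference of -0.10 had a 95% interval from -0.74 to 0.53. Krt8 and Krt18 have processed copies in the genome, and how the counting treated short reads shared with such copies is not given in the sources used here. The stretches before the start sites of both genes are shown because these genes had among the largest inductions and because a CACCTG, the core that Zeb2 can bind, is present in each. The sequences are the 250 bases before the RefSeq start site in GRCm38.p6, 5′ to 3′ on the gene's strand, with CACCTG or its reverse complement in capitals.
Krt18, chr15:102027966-102028215, plus strand: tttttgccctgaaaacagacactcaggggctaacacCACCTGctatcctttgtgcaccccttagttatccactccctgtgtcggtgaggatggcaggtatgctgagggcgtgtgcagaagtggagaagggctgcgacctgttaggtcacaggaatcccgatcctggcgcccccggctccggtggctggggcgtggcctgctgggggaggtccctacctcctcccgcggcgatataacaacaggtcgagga
Krt8, chr15:102004343-102004592, minus strand: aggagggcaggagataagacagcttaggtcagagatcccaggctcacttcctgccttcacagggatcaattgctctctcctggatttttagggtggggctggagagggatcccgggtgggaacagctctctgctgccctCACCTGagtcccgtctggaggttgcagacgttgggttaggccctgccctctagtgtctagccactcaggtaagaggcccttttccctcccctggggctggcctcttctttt

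A promoter window of 250 bases before to 50 after the start site could be matched for 163 of the 217 genes and for 7567 genes of the table. CACCTG, searched on both strands, was present in 46 of the 163 (28.2%), in 18.4% of the matched table genes and in 20% of all 27025 promoters of the RefSeq table. The median G+C share of the windows was 63.7% for the shared-induction genes and 61.7% for the table, and the median observed over expected CpG ratio 0.664 and 0.772. A match is a description of the letters and says nothing on binding. The other motifs searched on both strands gave TTCNNNGAA in 12 (7.36%, against 6.08% of the table genes and 8.47% of all promoters), TGANTCA in 5 (3.07%, against 4.52% and 7.93%), GGAATG in 28 (17.2%, against 11.9% and 14.6%) and TATAAA in 18 (11%, against 7.07% and 14.2%). The CArG box, bound by serum response factor, was present in 4, Cnn2, Fhl2, Myl3 and Myl9 (2.45%, against 1.47% and 1.57%). A direct repeat of AGGTCA with 5 bases between, a retinoic acid response element, was present in none of the 163, in 0.0132% of the table genes and in 0.0074% of all promoters. At shares this low a count of 0 is the background, and only these exact letters were searched, so it does not show that such elements are absent. Mapk12, whose levels in both genotypes ran close together, holds a CACCTG too and is printed for comparison with the keratin genes.
Mapk12, chr15:89140704-89140953, minus strand: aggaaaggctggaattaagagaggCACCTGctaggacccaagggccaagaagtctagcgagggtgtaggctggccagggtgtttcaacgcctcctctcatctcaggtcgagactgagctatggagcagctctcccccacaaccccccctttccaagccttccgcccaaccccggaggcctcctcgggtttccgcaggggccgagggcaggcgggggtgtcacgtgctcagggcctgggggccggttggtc

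The contractile and focal adhesion genes had different d4 values. Zyx, which encodes zyxin, a protein of focal adhesions, held 47.6, 56.2 and 54.1 TPM in Ctrl and 27.3, 34.7 and 30.1 TPM in KO at d4 without overlap, and was lower in KO by limma (-0.76 ± 0.11 (SE), adjusted p = 2.99e-05). Fhl2, which encodes a LIM domain protein that shuttles between adhesions and nucleus, held 13, 10.3 and 15.1 TPM in Ctrl and 2.45, 2.70 and 2.94 TPM in KO at d4. Its difference was -1.89 ± 0.17 (SE, adjusted p = 1.98e-07). At d6 Fhl2 held 10.2, 11.8 and 13.4 TPM in Ctrl and 11.6, 11.5 and 11.4 TPM in KO, so the Ctrl libraries of both days overlapped and the KO libraries were higher on d6.

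Cnn2, a calponin gene, was called lower at d4 (-0.47, adjusted p = 0.00486), which median-ratio rescaling ended (adjusted p = 0.0647), as did leaving out any of the 6 d4 libraries (adjusted p from 0.0101 to 0.0188). The myosin light chain gene Myl9 (14.6, 23 and 20.2 TPM in Ctrl, 11.8, 22.6 and 14.5 TPM in KO at d4) and the tropomyosin gene Tpm2 (27.3, 30.7 and 32.6 TPM in Ctrl, 26.8, 33.4 and 32.5 TPM in KO) overlapped between the genotypes. Tpm2 had a 95% interval of the d4 difference from -0.20 to 0.25, Tpm1 one from -0.38 to 0.17, and Flnc, a filamin gene, one from -0.40 to 0.24, all inside 0.5. Tropomyosins share sequence among themselves, which 36-base reads may not always tell apart.

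Krt8 and Krt18 also mark trophectoderm and other simple epithelia. Without them, the other trophectoderm and extraembryonic markers summed to 254 to 332 TPM in Ctrl and 109 to 155 TPM in KO at d6. The sum was 136 to 150 TPM in Ctrl and 87.5 to 95.2 TPM in KO at d4. At d0 it was 147 to 157 TPM in Ctrl and 143 to 152 TPM in KO. It still held the keratin genes Krt19 (181 TPM in Ctrl and 73.8 TPM in KO at d6) and Krt7 (28.8 and 6.55 TPM). Some markers, such as Tfap2c and Tead4, fell from d0 to d6 in both genotypes, and others, such as Hand1, rose. Of the 13 measured markers, none was below 1 TPM at d6 in either genotype. The summed level of 15 endoderm markers was 273 to 425 TPM in Ctrl and 73.1 to 110 TPM in KO at d6, and that of 10 mesoderm markers 242 to 293 TPM and 57.8 to 63.8 TPM. Much of the mesoderm sum in Ctrl was Meox1, with 153 TPM at d6 against 0.721 TPM in KO. The part of these cell types in the keratin and cytoskeletal induction was not tested.

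Most shared-induction genes of the interferon response and of antigen presentation were lower in KO at d4. Interferons act through Jak kinases and Stat factors on promoters with GAAA repeats, and among the proteins induced are guanylate-binding proteins and the machinery that loads peptides onto MHC class I. A list of these genes was drawn up after the values were seen, so its counts support nothing by themselves. Of 45 measured genes on it, 7 were shared-induction genes: Gbp2, Gbp7, Erap1, Tap2, B2m, Trim56 and Parp14. At d4 6 of the 7 were called lower in KO, with B2m as the exception, and their median difference was -1.47. Over the whole list 27 genes were called lower and 2 higher, against 32.7% and 12.7% of all genes. Of the 45 genes, 17 were induced by at least 2 in both genotypes, so a lower d4 level does not mean a later induction for each of them.

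Gbp7 (chr3:142530342-142550149, plus strand) had the lowest d4 difference of all shared-induction genes. In Ctrl it held 0.146, 0.217 and 0.775 TPM at d0, 12.8, 11.2 and 14.8 TPM at d4 and 16.6, 19.1 and 15.8 TPM at d6. In KO it held 0.137, 0.218 and 0.215 TPM at d0, 0.258, 0.216 and 0.535 TPM at d4 and 13.5, 13.4 and 12.1 TPM at d6. At d4 the Ctrl libraries thus neared their d6 level, with 89.7% of the induction present, while the KO libraries were still in the range of the d0 libraries, with 4, 4 and 9 reads. The d4 difference was -3.38 ± 0.16 (SE, limma adjusted p = 1.6e-10).

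Gbp2 (chr3:142620602-142638008, plus strand), 70.5 kb from Gbp7, had a later and larger induction. Its Ctrl libraries held 0.395, 0.188 and 0.105 TPM at d0, 4.3, 3.79 and 6.69 TPM at d4 and 71.8, 57.7 and 58.4 TPM at d6. Its KO libraries held 0.295, 0.0786 and 0.232 TPM, then 0.111, 0.280 and 0.462 TPM with 0, 2 and 3 reads, then 70.6, 69.1 and 71.0 TPM. At d4 the groups did not overlap (-2.18 ± 0.17 (SE), limma adjusted p = 3.48e-08), and at d6 the KO libraries lay within the Ctrl range. Each deposited value holds 1 added read per gene, so a library without a read is listed above 0. Gbp2 and Gbp7 belong to a family of similar neighbouring genes, whose reads may be shared.

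Tap2, Erap1, Parp14 and Trim56 were lower in KO at d4 as well, and their d6 libraries overlapped. Tap2, a subunit of the peptide transporter, held 4.51, 5.59 and 5.13 TPM in Ctrl and 1.55, 2.07 and 1.46 TPM in KO at d4 (-1.18 ± 0.14 (SE), limma adjusted p = 3.24e-06), and 9.21, 11 and 10.2 TPM in Ctrl and 10.0, 11.6 and 10.9 TPM in KO at d6. Erap1, which trims peptides in the endoplasmic reticulum, held 14.7, 11.5 and 11.8 TPM in Ctrl and 3.95, 4.23 and 3.57 TPM in KO at d4 (-1.47 ± 0.16 (SE), adjusted p = 1.59e-06). Parp14, an ADP-ribosyltransferase gene, held 4.56, 3.44 and 4.39 TPM in Ctrl and 0.257, 0.791 and 0.889 TPM in KO (-1.66 ± 0.17 (SE), adjusted p = 1.01e-06), and the KO libraries lay below their d0 values of 1.39, 1.35 and 0.983 TPM. Trim56, a ubiquitin ligase gene of innate immunity, held 24.4, 24.9 and 27.8 TPM in Ctrl and 15.2, 13.7 and 12.7 TPM in KO (-0.85 ± 0.15 (SE), adjusted p = 0.000228).

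B2m, the common light chain of MHC class I, behaved otherwise. It held 82.3, 106 and 98.2 TPM in Ctrl and 129, 101 and 128 TPM in KO at d4, with overlap and a 95% interval of the difference from -0.01 to 0.64. At d6 it had reached 373, 421 and 497 TPM in Ctrl and 369, 576 and 535 TPM in KO. The share of the induction present at d4 was 29.8% in Ctrl and 41.6% in KO.

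The letters before the start sites of Gbp2, Gbp7 and B2m are printed because they hold a pair of GAAA with 2 bases between, the core of the interferon-stimulated response element, and because Gbp2 and Gbp7 were lower in KO at d4 and B2m was not. This core was present, on either strand, in 8 of 163 matched shared-induction promoters (4.91%), in 2.63% of the matched table genes and in 3.49% of all promoters. Those 8 were B2m, Erap1, Fosl2, Gbp2, Gbp7, Mdfi, Rcn3 and Sepp1. Of the 5 interferon and antigen presentation genes with a matched promoter, 4 held it, and of the other 35 matched genes of that list 14 did. The match begins 59 bases before the start site in Gbp2, 53 in Gbp7 and 139 in B2m, and it is given in capitals, as its reverse complement in Gbp2 and Gbp7.
Gbp2, chr3:142620413-142620662, plus strand: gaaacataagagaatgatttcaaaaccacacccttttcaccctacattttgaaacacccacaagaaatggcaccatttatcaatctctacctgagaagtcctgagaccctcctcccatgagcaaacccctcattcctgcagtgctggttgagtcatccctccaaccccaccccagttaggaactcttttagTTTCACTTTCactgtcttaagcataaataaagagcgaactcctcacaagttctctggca
Gbp7, chr3:142530086-142530335, plus strand: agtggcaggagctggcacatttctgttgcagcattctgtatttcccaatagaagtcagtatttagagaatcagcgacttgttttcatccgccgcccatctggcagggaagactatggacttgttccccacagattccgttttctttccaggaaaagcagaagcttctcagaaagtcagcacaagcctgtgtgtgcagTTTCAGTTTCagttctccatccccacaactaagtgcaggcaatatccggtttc
B2m, chr2:122147437-122147686, plus strand: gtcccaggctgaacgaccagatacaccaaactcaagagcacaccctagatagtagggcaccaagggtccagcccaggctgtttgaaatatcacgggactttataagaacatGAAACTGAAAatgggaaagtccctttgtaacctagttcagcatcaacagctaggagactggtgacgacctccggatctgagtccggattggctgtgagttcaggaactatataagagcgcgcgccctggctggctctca

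**Figure D4:**
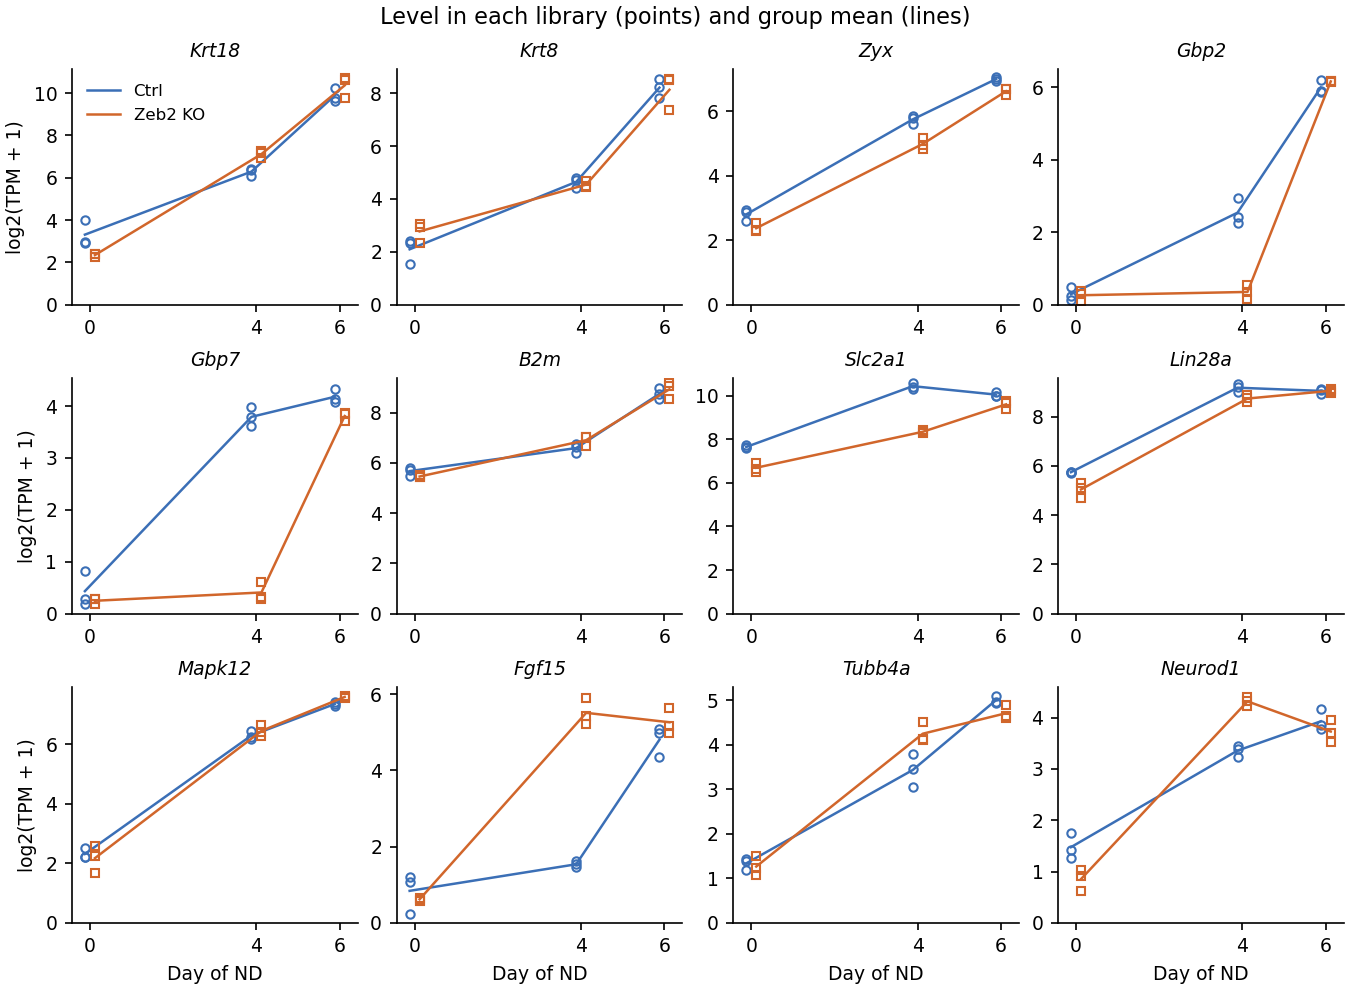
Levels of 12 shared-induction genes in log2(TPM + 1) (y axis) on d0, d4 and d6 of ND (x axis), with 3 libraries per group as points (circles for Ctrl, squares for Zeb2 KO) and group means as lines. Gbp2 and Gbp7 lie at their d0 level in KO on d4, Fgf15 lies at its final level in KO on d4 but not in Ctrl, and Krt8 and Mapk12 run together in both genotypes.

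Slc2a1, which encodes the glucose transporter GLUT1, had the highest mean level of the 217 in Ctrl at d4. It held 189.9, 198 and 210.2 TPM in Ctrl at d0 and 1276, 1339 and 1537 TPM at d4, above the 1145, 1009 and 1015 TPM of d6. In KO it held 120.2, 89.8 and 99.5 TPM at d0, 309.6, 338 and 322 TPM at d4 and 666, 813 and 851 TPM at d6. The d4 groups were far apart (-2.09 ± 0.11 (SE), limma adjusted p = 2.65e-10). At d6 the KO libraries were still below all Ctrl libraries, with a difference of -0.45 that is inside the limit of the rule.

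Txnip, whose product restrains glucose uptake and binds thioredoxin, differed little between the genotypes at d4. It started lower in KO, with 31.3, 32.7 and 34.0 TPM at d0 against 55.8, 67.9 and 59.9 TPM in Ctrl and no overlap. It held 409, 384 and 339 TPM in Ctrl and 420.2, 402 and 396 TPM in KO at d4, with a 95% interval of the difference from -0.06 to 0.27. Nt5dc2, which encodes a protein with a nucleotidase domain, was as close, with 626, 649 and 705 TPM in Ctrl and 639.9, 702 and 699 TPM in KO. Under the median-ratio rescaling Txnip was called higher in KO (0.28, adjusted p = 0.00823). Of the glycolysis and hypoxia list 3 of 24 measured genes were shared-induction genes (12.5%, against 1.98% of all genes), Slc2a1, Eno2 and Bnip3. This list too was chosen with earlier results of these data known, so the share supports nothing by itself. Eno2 and Bnip3 overlapped at d4 and had wide intervals, from -0.90 to 0.65 and from -1.09 to 0.30. At d6 KO replicate 1 was highest for both, with 50.2 TPM of Eno2 against 19.1 and 9.55 TPM in the other KO libraries.

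Lin28a blocks the maturation of let-7 miRNAs. It held 52.8, 51.9 and 53.3 TPM in Ctrl at d0, 516, 580.0 and 639.5 TPM at d4 and 484, 541 and 557 TPM at d6. In KO it held 38.7, 33.6 and 25.1 TPM, then 380.3, 463 and 435 TPM, then 501, 526 and 560.2 TPM, and the groups overlapped at d6. The d4 difference of -0.44 ± 0.12 (SE) passed the threshold (limma adjusted p = 0.00527). The call was lost under median-ratio rescaling (adjusted p = 0.0567) and without Ctrl d4 replicate 2 or 3 or KO d4 replicate 1 or 3 (adjusted p from 0.0118 to 0.0314).

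Some genes were ahead in KO. Fgf15, a fibroblast growth factor gene of the early neural tube and gut, held 1.32, 1.10 and 0.175 TPM in Ctrl at d0, 1.9, 2.07 and 1.74 TPM at d4 and 19.3, 30.6 and 33.1 TPM at d6. In KO it held 0.494, 0.526 and 0.583 TPM at d0, 36.1, 58.5 and 41.8 TPM at d4 and 49.1, 30.4 and 34.9 TPM at d6. KO cells thus stood at their d6 level on d4, when Ctrl cells were near their d0 level, and the d4 difference of 3.97 ± 0.26 (SE, limma adjusted p = 4.18e-09) was the highest of the 217. Fgf15 was the single shared-induction gene among 28 measured genes of the formative and primed epiblast list. Of these 28 genes, 17 were called higher in KO at d4, against 12.7% of all genes.

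Neurod1, a neurogenic basic helix-loop-helix factor, held 8.37, 9.49 and 9.93 TPM in Ctrl and 19, 20.1 and 17.7 TPM in KO at d4 (0.96 ± 0.16 (SE), limma adjusted p = 8.97e-05). At d6 it held 10.5, 12.1 and 14.5 TPM in KO, below the d4 libraries, and 16.9, 13.4 and 12.7 TPM in Ctrl, above them. Podxl, which encodes podocalyxin, a surface sialomucin, held 25.5, 30.4 and 32.6 TPM in Ctrl and 58.2, 75.9 and 62.0 TPM in KO at d4 (1.12 ± 0.14 (SE), adjusted p = 4.53e-06). Itm2a, a transmembrane protein gene, held 32.7, 22.5 and 22.2 TPM in Ctrl and 67.6, 71.9 and 45.5 TPM in KO (1.22 ± 0.16 (SE), adjusted p = 1.16e-05). Pld4 (0.99, adjusted p = 0.00143) and Adamts15, a secreted metalloprotease gene (0.87, adjusted p = 0.000333), completed the 6 highest differences that were called.

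Some genes of neurons and synapses were among the shared-induction genes. Of 29 measured genes on the neuronal and synaptic list 6 (20.7%, against 1.98% of all genes) were shared-induction genes, Tubb4a, Crmp1, Gng2, Cacna1h, Syt11 and Basp1. The list was chosen with earlier results of these data known, so this share supports nothing by itself. Of the 29, 9 were induced by at least 2 in both genotypes, and Mapt and Stmn2 fell in both. At d4 2 of the 6 shared-induction genes were called higher and 1 lower in KO, against 12.7% and 32.7% of all genes. Other genes of the list differed between the genotypes at d6, such as Dpysl3 (-3.27) and Dcx (-2.63), lower in KO, and Gng3 (1.64), higher in KO. Tubb4a, a beta tubulin gene, held 7.28, 9.94 and 12.9 TPM in Ctrl and 16.2, 21.7 and 16.5 TPM in KO at d4 (0.81 ± 0.17 (SE), limma adjusted p = 0.000822, and 0.0102 in a fit to the d4 libraries alone). Gng2, a G protein gamma subunit gene, was higher by 0.43 (adjusted p = 0.00302), and not without Ctrl d4 replicate 2 or KO d4 replicate 2 or 3 (adjusted p from 0.0113 to 0.0195). Basp1, which encodes a membrane protein of growth cones, held 389, 425 and 408 TPM in Ctrl and 279, 241 and 300.1 TPM in KO (-0.58, adjusted p = 0.000899, and 0.0129 under median-ratio rescaling). Crmp1, a collapsin response mediator gene, overlapped at d4 with 21.2, 26.8 and 32.6 TPM in Ctrl and 27.4, 35.4 and 34.6 TPM in KO, as did Cacna1h, a calcium channel gene, and Syt11, a synaptotagmin gene.

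No shared-induction gene was on the lists of neural progenitor genes (21 measured), retinoic acid signalling (22), Hox and TALE factors (32), naive pluripotency (20), mesoderm (10), imprinted genes (26), p53 targets and cell cycle inhibitors (26), cholesterol and lipid metabolism (24) or DNA methylation and chromatin (28). With 1.98% of all genes chosen, a count of 0 in a list of this size is close to the background. Of the 22 retinoic acid genes 16 were called lower in KO at d4, as were 29 of the 32 Hox and TALE genes, against 32.7% of all genes.

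The p38 kinase gene Mapk12 (chr15:89130584-89140703) went from 3.67, 3.61 and 4.69 TPM at d0 over 71.5, 86.8 and 74.9 TPM at d4 to 169.9, 161 and 156 TPM at d6 in Ctrl. In KO it went from 2.21, 5.04 and 3.72 TPM over 83.3, 99.8 and 77.1 TPM to 192, 195 and 187 TPM. The groups overlapped at d4, with a difference of 0.15 and a 95% interval from -0.20 to 0.51. Its neighbour Mapk11, 1.78 kb away on the same strand and also a p38 kinase gene, held 17.4, 23.5 and 23.8 TPM in Ctrl and 25.6, 28.8 and 30.4 TPM in KO at d4, where the groups did not overlap and the difference of 0.38 missed the threshold (limma adjusted p = 0.0607). On a list of p38, JNK and AP-1 genes made after the values were seen, 4 of 15 measured genes (26.7%, against 1.98% of all genes) were shared-induction genes, the other 2 being Jun and Fosl2. Because of how the list was made, this count supports nothing by itself.

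Id1, a BMP target that blocks basic helix-loop-helix factors, held 26.3, 33.1 and 38.3 TPM in Ctrl and 20, 21.5 and 22.9 TPM in KO at d4, without overlap and short of the threshold (-0.57, limma adjusted p = 0.0255). It was the single shared-induction gene of 25 measured on the TGF-beta and BMP list. The Wnt ligand genes Wnt9a and Wnt4 (2 of 36 measured Wnt genes), the Notch ligand gene Dll3 (1 of 15), the ephrin gene Efnb2 and the semaphorin receptor gene Plxnd1 (2 of 37 ephrin, semaphorin and axon guidance genes), and the insulin receptor substrate gene Irs2 (1 of 16) were among the shared-induction genes. Efnb2 was lower in KO at d4 with 58.2, 74.6 and 68.8 TPM against 88.6, 92.5 and 94.4 TPM in Ctrl (-0.45, adjusted p = 0.000756, and 0.0145 under median-ratio rescaling). Plxnd1 (-0.52, adjusted p = 0.00667) and Wnt9a (-0.58, adjusted p = 0.00549) were called lower too, calls that median-ratio rescaling ended (adjusted p = 0.0541 and 0.0237) and that did not hold without Ctrl d4 replicate 2 or 3 or KO d4 replicate 3 (adjusted p from 0.0154 to 0.0335), nor for Plxnd1 without KO d4 replicate 2 (0.0255), nor for Wnt9a without Ctrl d4 replicate 1 (0.0102) or KO d4 replicate 1 (0.0251). Dll3 and Wnt4 overlapped, and Fosl2, which encodes an AP-1 factor, was low and lower in KO (0.230, 0.314 and 0.448 TPM against 1.03, 1.32 and 1.89 TPM, -0.85, adjusted p = 0.000952, and 0.134 under quantile normalization).

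Of 49 measured extracellular matrix and integrin genes, Mmp2 and P4ha2 were shared-induction genes. Mmp2, a gelatinase gene, overlapped at d4 with 91.5, 97.5 and 97.7 TPM in Ctrl and 89.8, 105 and 95.5 TPM in KO. P4ha2, a collagen prolyl hydroxylase gene, held 11.4, 12.2 and 13.2 TPM in Ctrl and 5.39, 8.14 and 6.58 TPM in KO (-0.80, limma adjusted p = 0.00146), a call lost without KO d4 replicate 1 (adjusted p = 0.0102) and under quantile normalization (0.0248). Of 9 measured annexin genes, a list made after the values were seen, Anxa2 and Anxa3, whose products bind membranes in the presence of calcium, were shared-induction genes. Both were called lower, as were 32.7% of all genes, and the counts of this list support nothing by themselves. Anxa2 held 21.8, 16.5 and 22.4 TPM in Ctrl and 11.6, 14.6 and 12.3 TPM in KO at d4, and Anxa3 held 5.49, 5.49 and 4.89 TPM in Ctrl and 3.19, 2.63 and 1.6 TPM in KO, in both cases without overlap. Amn, the single shared-induction gene of 15 on the endoderm list and part of the receptor for vitamin B12, overlapped with 1.6, 1.27 and 1.72 TPM in Ctrl and 2.6, 1.34 and 4.36 TPM in KO.

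Some germ cell genes were represented as well. A list of germ cell and meiosis genes was drawn up after the values were seen, so its counts support nothing by themselves. Of 21 measured genes on it, 6 (28.6%, against 1.98% of all genes) were shared-induction genes: Dmrt1, Tdrd7, Prss50, Smc1b, Sycp2 and Meiob. No other gene of the list was induced by at least 2 in both genotypes. The induction of Stra8 was 6.25 in Ctrl and 0.29 in KO, and that of Rec8 3.11 and 1.13. That of Sycp3 was 1.66 in Ctrl and 4.57 in KO. Dazl changed little, and Tdrd12 and Hormad1 fell in both genotypes. Dmrt1, a gonadal transcription factor gene, held 53.9, 42.8 and 44.1 TPM in Ctrl and 16.9, 11.9 and 15.7 TPM in KO at d4 (-1.61 ± 0.19 (SE), limma adjusted p = 2.86e-06), and 48.2, 68.3 and 47.9 TPM in Ctrl and 46.5, 36 and 35.3 TPM in KO at d6. Tdrd7, a tudor domain gene of germ granules, was also called lower (-0.71, adjusted p = 0.00161). Meiob, a meiotic recombination gene, held 12.1, 7.81 and 4.31 TPM in KO against 3.90, 2.82 and 3.09 TPM in Ctrl without overlap, short of the threshold (1.00, adjusted p = 0.0115).

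**Figure D5:**
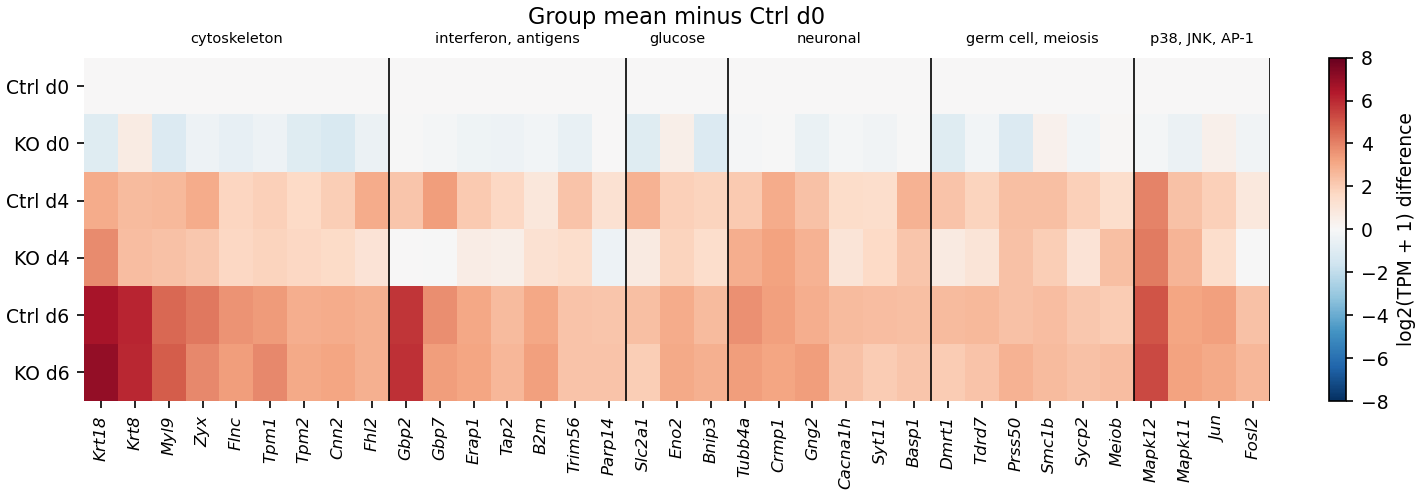
Group means of log2(TPM + 1) minus the Ctrl d0 mean (colour scale) for 35 shared-induction genes in 6 groups of genes (horizontal axis), for each day and genotype (vertical axis, 3 libraries each). For Gbp2, Gbp7 and Fosl2 the KO value at d4 is close to 0 and the Ctrl value is not, and the d6 values of both genotypes are alike by the choice of the genes.

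Other genes with large values belonged to no list. AU015836, on the X chromosome, held 20.6, 21.2 and 18.6 TPM in Ctrl and 3.13, 3.3 and 3.3 TPM in KO at d4 (-2.32 ± 0.13 (SE), limma adjusted p = 5.38e-10), and at d6 it held 14.5, 13.1 and 13.9 TPM in Ctrl and 12.1, 15.3 and 10.4 TPM in KO. Sepp1, the gene of the plasma selenium carrier selenoprotein P, held 56.0, 43.2 and 44.9 TPM in Ctrl and 19.7, 18.9 and 16 TPM in KO at d4 (-1.35 ± 0.13 (SE), adjusted p = 3.93e-07), and overlapped at d6. Rgl3, a Ral exchange factor gene, overlapped at d4 with 6.55, 11.6 and 8.97 TPM in Ctrl and 14.1, 12.1 and 10.3 TPM in KO. Cmtm8, a gene of the CKLF-like MARVEL transmembrane family, was called lower in KO at d4 (-0.58, adjusted p = 0.00974), and the call was lost when any single library was left out other than KO d0 replicate 2 or 3 or KO d4 replicate 2 or 3 (adjusted p from 0.0104 to 0.0637). Spink1, a secreted trypsin inhibitor gene, overlapped as well, with a 95% interval of the d4 difference from -0.21 to 1.46.

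By annotation 210 of the 217 (96.8%, against 85.9% of all genes) were protein coding, and the others were 2 antisense genes, 2 processed pseudogenes, 1 polymorphic pseudogene, 1 processed transcript and 1 lincRNA. Whether reads were counted by strand is not given in the sources used here, so the antisense genes may hold reads of their partners. In 11 cases 2 of the genes lay within 100 kb of each other. Among these pairs were Krt8 and Krt18, Gbp7 and Gbp2, Mapk12 and Mapk11, P3h4 and Fkbp10, and Dll3 and Plekhg2. The count was not set against other gene sets of this size, so it does not show clustering. The genes were spread over all autosomes and the X chromosome, from 4 on chromosomes 12 and 16 to 20 on chromosome 2. On chromosomes 8 and 12 the median d0 difference over all genes was 0.33 and 0.36, unlike the -0.07 over the whole table, and 10 and 4 shared-induction genes lay there. The median d4 difference on these 2 chromosomes was -0.20 and -0.18, near the -0.16 over the whole table, so the shift was seen at d0 and not at d4. The part of these chromosome-wide d0 shifts in the choice of genes was not tested.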

How the data were processed

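RNA-seq of 18 libraries, 3 for each genotype and day, was analysed from 1 table. According to the study's methods and processing notes, the authors aligned single 36-base reads to GRCm38 (mm10) with TopHat2 (v2.0.13), counted them with featureCounts (v1.4.6), and deposited TPM values for genes with at least 5 TPM in at least 3 samples, without short noncoding genes and the 20% least variable genes. Each deposited TPM value holds 1 added read per gene. The deposited table also holds per-gene spread scores over all libraries (variance, standard deviation and variability), made by the authors and not used here. Of 11046 entries, 81 repeated a gene and the first was kept. Whole reads were recovered from the TPM values of all 10965 genes (tolerance 1e-06), giving 9622622 to 15617675 reads per library. The d4 difference between Zeb2 KO and Ctrl was fitted on log2(TPM + 1) with limma (v3.58.1, R v4.3.3), using 6 group means, no covariate and a trended prior variance, two-sided with Benjamini-Hochberg adjustment over all genes, and called at adjusted p = 0.01. The study reports 3 independent experiments for each stage. Since nothing in the labels says how the replicates were raised, p-values measure the spread between these samples. Alternatives were other pseudocounts (0.1 and 5), a mean of at least 10 TPM, median-ratio and quantile scaling, the d4 libraries alone, no trend, a replicate block, other thresholds, each library left out, and, chosen after seeing the data, voom on the recovered reads. The fit was tested on simulated data. Gene positions came from the GENCODE annotation on GRCm38, and promoter sequences from RefSeq (GRCm38.p6). Python (v3.11.15), numpy (v2.4.6), pandas (v2.3.3) and matplotlib (v3.10.9) were used.

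The genes and lists were chosen with earlier results of these data known. Genes named were the 12 with the largest smaller-of-both induction, the 6 highest and 6 lowest called d4 differences, the 5 highest TPM means at d6, all on a gene list, those next to the limits of the rule, and Zeb2. Members of the interferon, germ cell, p38 and annexin lists, and genes said to be singled out, were named after their values were seen.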

Additional observations from a re-analysis of the deposited data

How the results depend on the processing

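The number of genes chosen was 282 with a pseudocount of 0.1 and 70 with one of 5, 125 among genes with a mean of at least 10 TPM, 166 with median-ratio scaling and 81 with quantile scaling, and it was 115 with a d6 limit of 0.25, 395 with an induction of at least 1.5 and 43 with one of at least 3. Leaving out 1 library at a time gave 204 to 221 genes. Of the 217 genes, 62 were called lower at d4, and this count was 41 with median-ratio scaling, 36 with quantile scaling, 19 when a difference above 1 was asked for, 87 at adjusted p = 0.05, and 45 to 65 with 1 library left out. The 17 called higher became 11 among genes with a mean of at least 10 TPM, 36 with quantile scaling, 35 with voom, 3 with a difference above 1, and 13 to 21 with 1 library left out. The median d4 difference of -0.25 was -0.09 with median-ratio scaling, -0.10 with voom and 0.0373, of the opposite sign, with quantile scaling, and -0.28 to -0.20 with 1 library left out. The all-gene median moved with the scaling, from -0.16 to 0.00. With a replicate block, 61 genes were lower and 20 higher. Same-numbered Ctrl and KO libraries at d4 correlated with 0.231, 0.187 and 0.0465 in their deviations from the group means, and each d4 library correlated best with the one of its own number. For replicates 1, 2 and 3 the values were 0.152, 0.148 and -0.077 at d0, and 0.180, 0.214 and 0.018 at d6. The labels do not say whether equal numbers are pairs. The main fit did not pair them, and the counts with a replicate block are those given above. Among 52 named genes, 1347 of 1439 values under alternatives kept their side of the threshold and their direction. Of the calls, 69 were lost, 23 were gained and none reversed, and 31 genes had no changed call. Many alternatives leave the d4 difference itself unchanged, so its direction could not reverse under them. They are leaving out a d0 or d6 library, no trend, a replicate block, the d4 libraries alone and another p threshold. The high kept share was thus partly fixed in advance. Where calls were lost, the cause was not tested. The d0 values rest on few reads, with 84 genes under 10 reads in at least 1 d0 library.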
